A study of Schmidtea mediterranea with 10 samples.

Results

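The genes agat-1 (SMED30018353), agat-2 (SMED30009513) and agat-3 (SMED30019154) of the planarian Schmidtea mediterranea were followed through 10 sorted-cell RNA-seq libraries. They are 3 of the 36035 genes in the deposited tables, and they were chosen because they are the transcripts that the pooled agat probes were designed against. All worms were wild type, of the clonal asexual strain CIW-4 (C4), uninjured, held at 20 °C and unfed for 2 weeks or longer. Dissociated and fixed whole worms were labelled by hybridization chain reaction, which makes a cell fluoresce where a chosen transcript is present, and were sorted by flow cytometry. The pooled agat probes gave 4 agat-positive and 4 agat-negative libraries, and a piwi-1 probe gave 1 piwi-1-positive and 1 piwi-1-negative library. The probes for the 3 agat genes carried the same fluorophore, so a cell in the agat-positive gate could hold any one of the transcripts or several. About 160 worms were shared out between the labels. The sample titles number the agat libraries as biological replicates, and the labels do not say how worms were assigned to replicates. The p-values below therefore set differences against the spread between these libraries, part of which may be technical.

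The enzyme L-arginine:glycine amidinotransferase (AGAT) moves an amidino group from arginine to glycine, and in vertebrates its product is methylated to creatine, a carrier of high-energy phosphate. Planarian genes of this family mark late progenitors of the epidermis. These are cells that have left the cell cycle and move from the inner parenchyma towards the body surface. They descend from neoblasts, the dividing stem cells, whose usual marker is the PIWI-family gene piwi-1 (SMED30007406).

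Assigned counts ran from 35081410 to 51821158 per library. The agat genes had 45 to 78409 counts in a library, so no member was at 0 anywhere. Unmapped reads made up 34.51% of agat-negative replicate 4 and 29.67% of the piwi-1-positive library, against 19.68% to 24.49% elsewhere. The deposited tables pair no gene ID with a name, so genes other than the probe targets appear by ID.

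agat-1 was abundant in agat-positive cells and varied several-fold between them. Across agat-positive replicates 1 to 4 its level was 1627, 305, 234 and 1564 CPM (counts scaled to a common library total). Across agat-negative replicates 1 to 4 it was 14.7, 33.6, 94.6 and 28.4 CPM. The gates did not overlap, but the lowest positive library was only 2.47-fold above the highest negative one, while the highest positive library was 110-fold above the lowest negative one. The means were 932 ± 766 and 42.8 ± 35.4 CPM (SD, n = 4).

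agat-2 followed the same order of libraries within the positive gate except at the top. Across agat-positive replicates 1 to 4 it measured 1479, 286, 220 and 1600 CPM. Across agat-negative replicates 1 to 4 it measured 10.9, 43.7, 77.5 and 34.2 CPM. Replicates 1 and 4 were the high libraries of the positive gate for both genes, and replicate 3 was the high library of the negative gate.

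agat-3 was the least abundant of the 3 and had the lowest levels in the negative gate. Across agat-positive replicates 1 to 4 it measured 725, 146, 119 and 643 CPM. Across agat-negative replicates 1 to 4 it measured 1.26, 16.2, 29.4 and 6.92 CPM. The lowest of these rested on 45 counts (95% exact Poisson interval 0.920 to 1.69 CPM, counting error only). Within the negative gate agat-3 spanned 23.3-fold, against 6.42-fold for agat-1 and 7.13-fold for agat-2, while in the positive gate the spans were 6.09-fold, 6.96-fold and 7.26-fold. In bulk libraries, fewer labelled cells and less transcript per cell cannot be told apart.

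**Figure D1:**
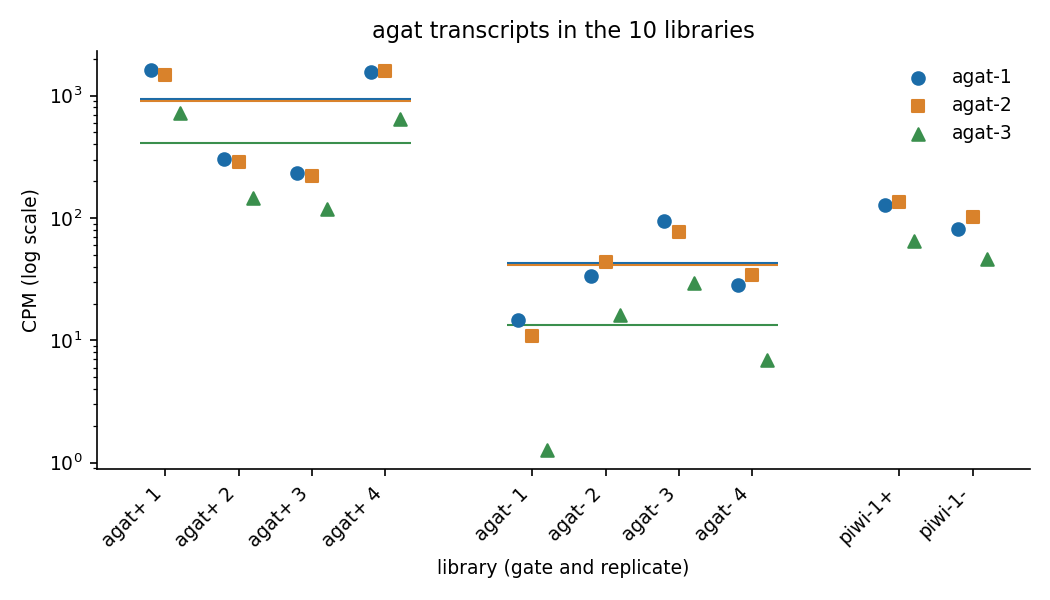
Level of agat-1, agat-2 and agat-3 in CPM (log axis) in each of the 10 libraries, with a line at the mean of the 4 libraries of each agat gate; + and - mark the positive and negative gate. The agat-positive libraries form a high pair (replicates 1 and 4) and a low pair (replicates 2 and 3), and all 4 lie above every agat-negative library.

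In the fit over all genes, the differences were large and their errors were large too. The log2 fold change of agat-positive over agat-negative libraries was 4.61 (SE 0.96) for agat-1, a fitted 24.4-fold. It was 4.58 (SE 0.96) for agat-2, 23.96-fold. For agat-3 it was 5.10 (SE 1.15), 34.3-fold. The adjusted p by edgeR's quasi-likelihood test were 0.20, 0.20 and 0.207, so none of the 3 passed 0.05. The sort was set on these transcripts, so the values describe how well the gates separated and are not independent evidence of a difference.

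The same fit called 2 of 22954 genes higher, a background of 0.00871%. These were SMED30013218 and SMED30029782, named here after their values were seen because the count is small. Before adjustment, 1208 of the 22954 genes were higher with an edgeR p under 0.05, the 3 agat genes among them. At the same limit 1235 genes were lower. By p-value agat-1 held place 167, agat-2 place 174 and agat-3 place 308 among the genes tested. By size of the fold change they held places 29, 34 and 3 among the 8374 genes with a mean of 10 CPM or more.

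With the Wald test of DESeq2, agat-1, agat-2 and agat-3 each passed. Its log2 fold changes were 4.62 for agat-1, 4.59 for agat-2 and 5.12 for agat-3, with DESeq2 adjusted p of 8.4e-06, 2.4e-05 and 4.4e-05. DESeq2 called 403 of 25972 genes higher, or 1.55%. All 3 agat genes were higher in every positive than in every negative library, which held for 655 of the 8374 genes of 10 CPM or more in TMM-scaled CPM (CPM corrected for composition), or 7.82%. In CPM without that correction the background was 4.35%. Without agat-negative replicate 4 the count of such genes was 1298. Without agat-negative replicate 3, the library with the most agat transcript in its gate, the edgeR estimate was 5.28 for agat-1 and 5.78 for agat-3.

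**Figure D2:**
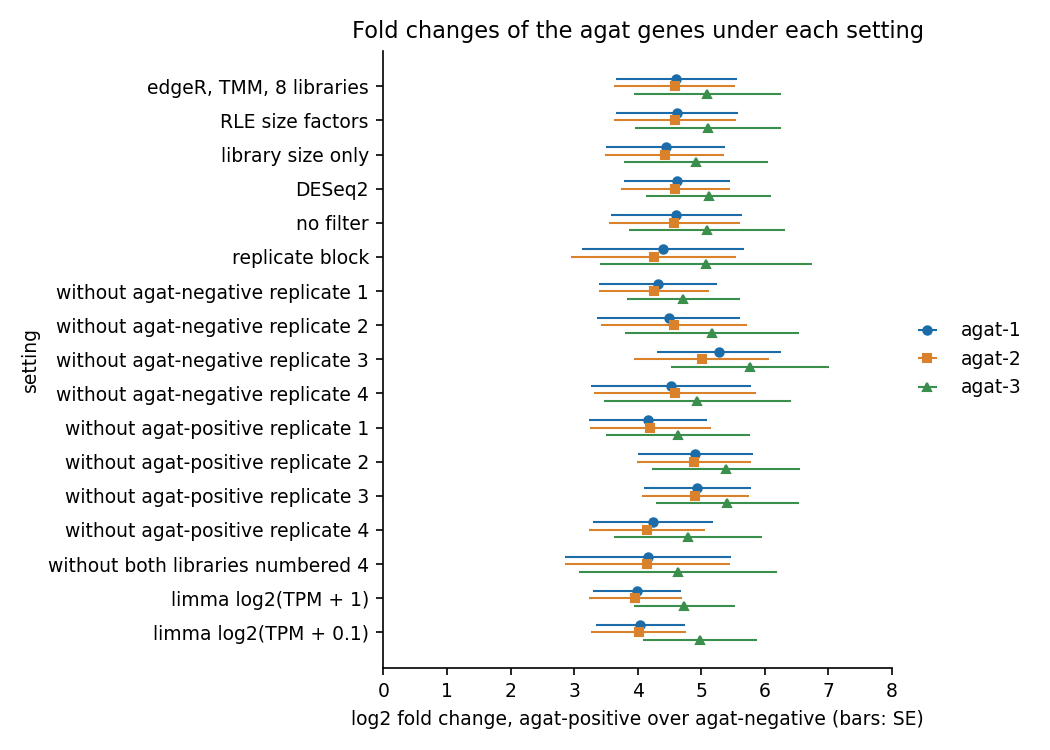
Log2 fold change of agat-positive over agat-negative libraries (x axis, bars are the SE) for the 3 agat genes under each setting (y axis). The estimates run from 3.96 to 5.78 and stay far above 0, while the SE bars are wide throughout.

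The rank of a gene within a library shows how prominent the agat transcripts were in each gate. Ranks were taken by TPM, which corrects for transcript length, over all 36035 genes, with 1 as the most abundant. In agat-positive replicates 1 to 4 agat-1 ranked 90, 425, 493 and 92. In the negative replicates it ranked 6295, 3237, 1216 and 3050. Still, agat-1 lay above 82.5% to 96.6% of genes in each negative library.

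agat-2 ranked 127, 521, 670 and 109 in the positive replicates and 9152, 2968, 1806 and 3115 in the negative ones. agat-3 ranked 210, 824, 1008 and 231 in the positive replicates. In the negative replicates it ranked 17620, 6259, 3730 and 8869. In agat-negative replicate 1 agat-3 lay above only 51.0% of genes, near the middle of the table, the lowest place of any agat gene in any library.

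**Figure D3:**
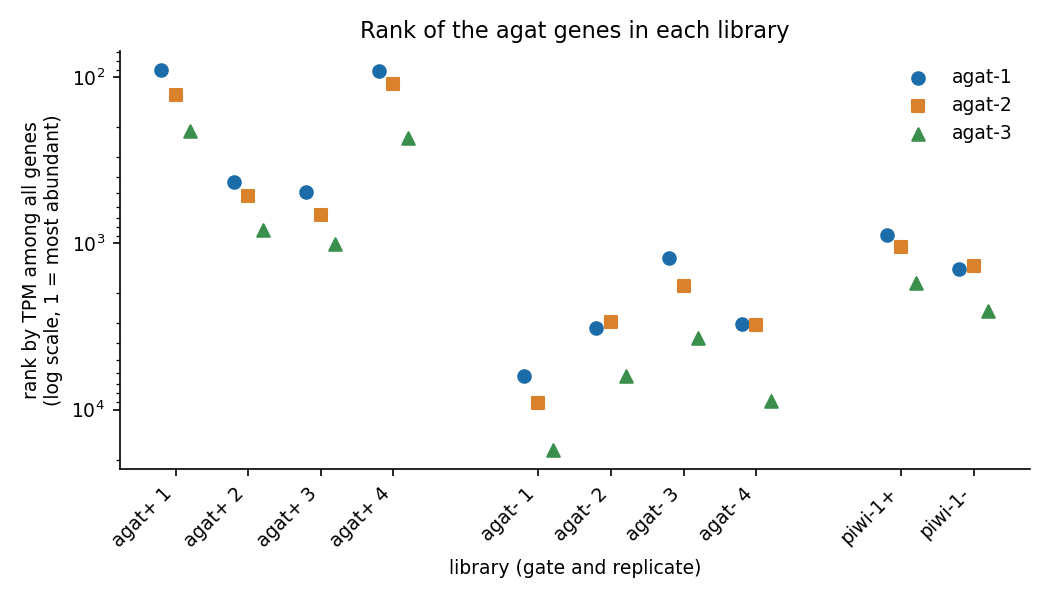
Rank by TPM among 36035 genes (inverted log axis, 1 is the most abundant) of agat-1, agat-2 and agat-3 in each library. Ranks run from 90 (agat-1, agat-positive replicate 1) to 17620 (agat-3, agat-negative replicate 1).

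The transcripts did not vanish from the negative gate. As a mean over 4 libraries, agat-1 in agat-negative cells stood at 4.60% of its level in agat-positive cells in CPM, agat-2 at 4.64% and agat-3 at 3.30%. The 3 genes together took 0.00269%, 0.00936%, 0.0202% and 0.00696% of assigned counts in agat-negative replicates 1 to 4. In agat-positive replicates 1 to 4 they took 0.383%, 0.0737%, 0.0573% and 0.381%. The library with the most agat transcript in the negative gate and the library with the least in the positive gate both carry the number 3. The ratio of positive to negative agat-1 was 110, 9.07, 2.47 and 55.1 for libraries numbered 1 to 4, although the labels do not say that a number marks a shared sort. Replicates 1 to 3 of the agat gates share a column-name pattern that replicate 4 lacks, in the positive and the negative gate alike, and the labels give no reason. The agat fold changes are therefore also given without replicate 4 of both gates, at 4.16 for agat-1, 4.15 for agat-2 and 4.64 for agat-3 on the log2 scale.

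The piwi-1 gates were not set on agat transcripts and held intermediate amounts of them. agat-1 had 128 CPM (95% exact Poisson interval 125 to 132) in the piwi-1-positive and 81.2 CPM (78.3 to 84.2) in the piwi-1-negative library. agat-2 had 135 CPM (131 to 139) and 101 CPM (97.8 to 104). agat-3 had 65.5 CPM (62.8 to 68.2) and 46.0 CPM (43.8 to 48.3). All 6 values lay below the lowest agat-positive library of the gene concerned. Those of agat-2 and agat-3 lay above all 4 agat-negative libraries.

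For agat-1 the place of the piwi-1-negative library depended on the scaling. In CPM and in TPM it lay above 3 of 4 agat-negative libraries, with agat-negative replicate 3 above it, and in TMM-scaled CPM above all 4. The piwi-1-positive library lay above all 4 agat-negative libraries on each of these scales. By summed agat TPM the order of the 10 libraries was agat-positive replicates 4 and 1 (both 2825), agat-positive replicate 2 (616), agat-positive replicate 3 (492), piwi-1-positive (297), agat-negative replicate 3 (182), piwi-1-negative (178), and agat-negative replicates 2, 4 and 1 (82.4, 66.0 and 23.9). The neighbours at the top of this order differed by far less than the range of the agat-positive gate. Likewise, agat-negative replicate 3 and the piwi-1-negative library differed by far less than the range of the agat-negative gate.

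Within the piwi-1 pair, all 3 agat transcripts were somewhat higher on the positive side. The CPM ratio of piwi-1-positive to piwi-1-negative was 1.58 for agat-1 (95% exact binomial interval 1.51 to 1.66). It was 1.34 for agat-2 (1.28 to 1.40) and 1.42 for agat-3 (1.33 to 1.52). For piwi-1, on which these gates were set, it was 6.34 (6.18 to 6.50). The piwi-1-negative library still held 200 CPM of piwi-1, against 1267 CPM in the piwi-1-positive one. There is 1 library per gate, so the intervals cover counting error only and there is no test. No agat gene reached a 2-fold difference in CPM + 1, which 14.5% of the 8146 genes of 10 CPM or more did on the positive side, and all 3 were above a log2 ratio of 0, as were 48.1% of those genes. In that measure the agat genes lay above 75.1%, 67.5% and 70.0% of those genes, so ratios of this size were common. With TMM scaling the log2 ratios were 0.40, 0.16 and 0.25 in place of 0.66, 0.42 and 0.51, and in TPM they were 0.89, 0.56 and 0.76.

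piwi-1 itself was ordered the other way across the agat gates. It measured 180, 382, 393 and 309 CPM across agat-positive replicates 1 to 4, below the 573, 472, 545 and 398 CPM of agat-negative replicates 1 to 4. The margin was narrow, at 393 CPM in the highest positive against 398 CPM in the lowest negative library. The share of all genes lower in every positive library is not given here. The log2 fold change of piwi-1, -0.55 (SE 0.21), did not pass (edgeR adjusted p = 0.391). Ranked from the highest fold change down, piwi-1 held place 7772 of the 8374 genes with a mean of 10 CPM or more. Both agat-positive libraries with high agat levels, replicates 1 and 4, held the lower piwi-1 levels of their gate. The part of this in the agat levels was not tested.

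The proportions of the 3 transcripts varied far less than their levels in agat-positive cells. In TPM, which allows levels of different genes to be compared, agat-2 stood at 0.754, 0.789, 0.751 and 0.854 of agat-1 in agat-positive replicates 1 to 4. agat-3 came to 0.427, 0.494, 0.472 and 0.393 of agat-1. The log2 ratio of agat-2 to agat-1 had an SD of 0.09 over these 4 libraries, that of agat-3 to agat-1 an SD of 0.15, and that of agat-3 to agat-2, which ran from 0.460 to 0.628, an SD of 0.21. The log2 levels of agat-1, agat-2 and agat-3, in TMM-scaled CPM + 1, had SDs of 1.57, 1.59 and 1.45. That spread of levels was larger than that of 99.4%, 99.4% and 99.0% of the 8376 genes with a mean of 10 CPM or more over all libraries, whose median SD was 0.19.

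In the negative gate the proportions were looser. Levels of genes in general also spread more there: the median SD of log2 level over the 8376 genes was 0.31, against 0.19 in the positive gate. agat-2 stood at 0.555, 1.10, 0.670 and 0.977 of agat-1 in TPM in agat-negative replicates 1 to 4, so the 2 genes changed places in replicate 2. agat-3 came to 0.0910, 0.451, 0.305 and 0.210 of agat-1, a 4.96-fold range against 1.26-fold in the positive gate. In raw counts the ratio of agat-3 to agat-1 had a 95% exact binomial interval of 0.0616 to 0.116 in agat-negative replicate 1 and 0.440 to 0.529 in replicate 2.

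agat-3 made up a smaller part of the agat transcripts in agat-negative than in agat-positive libraries on average, but no difference in proportion passed its test. Relative to agat-2 in TPM, agat-3 came to 0.570 ± 0.079 in the positive gate and 0.311 ± 0.143 in the negative gate (SD, n = 4), a difference of 0.99 on the log2 scale. All 4 negative libraries lay below all 4 positive ones in this ratio, by a narrow margin of 0.455 against 0.460. The exact two-sided permutation test returned p = 0.0286, as small as 8 libraries split evenly allow, and 0.0857 after adjustment over the 3 ratios tested. A ratio at that smallest p cannot pass 0.05 after this adjustment unless another ratio also has a small p. The agat-3 to agat-2 ratio therefore could not have passed alone, however well the gates separated. The ratio of agat-3 to agat-1 differed by 0.97 on the log2 scale (exact permutation p = 0.0857, adjusted 0.129), and without agat-negative replicate 1 by 0.54. For agat-2 to agat-1 the difference was -0.02 (exact permutation p = 0.943), a value whose sign turned with single libraries left out. Related copies can share reads, so the division of reads between the 3 genes is uncertain in both tables. The ratio of agat-2 to agat-1 in counts was 1.18 to 1.33 times that in TPM, depending on the library. For agat-3 to agat-1 this factor was 0.940 to 1.16, and for agat-3 to agat-2 it was 0.707 to 0.942. In counts, the lowest positive and highest negative ratios of agat-3 to agat-2 were 0.402 and 0.380. Counts are not corrected for transcript length, so a constant factor between the measures is no sign of uncertain division. The source of the variation of these factors between libraries was not tested.

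Relative to agat-1, both other transcripts lay within the agat-positive range in the piwi-1-positive library and above it in the piwi-1-negative library. In TPM, agat-3 came to 0.485 of agat-1 in the piwi-1-positive library, inside the agat-positive range of 0.393 to 0.494, and at 0.530 in the piwi-1-negative library, above it. Both values lay above all 4 agat-negative libraries. agat-2 came to 0.827 and 1.04 of agat-1, inside and above the agat-positive range of 0.751 to 0.854. Both of these lay inside the agat-negative range of 0.555 to 1.10, so the agat-2 proportion did not set the piwi-1 libraries apart from the agat-negative gate. agat-1 was therefore the most abundant of the 3 per length in 8 of 10 libraries, with agat-2 ahead in the piwi-1-negative library and agat-negative replicate 2.

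**Figure D4:**
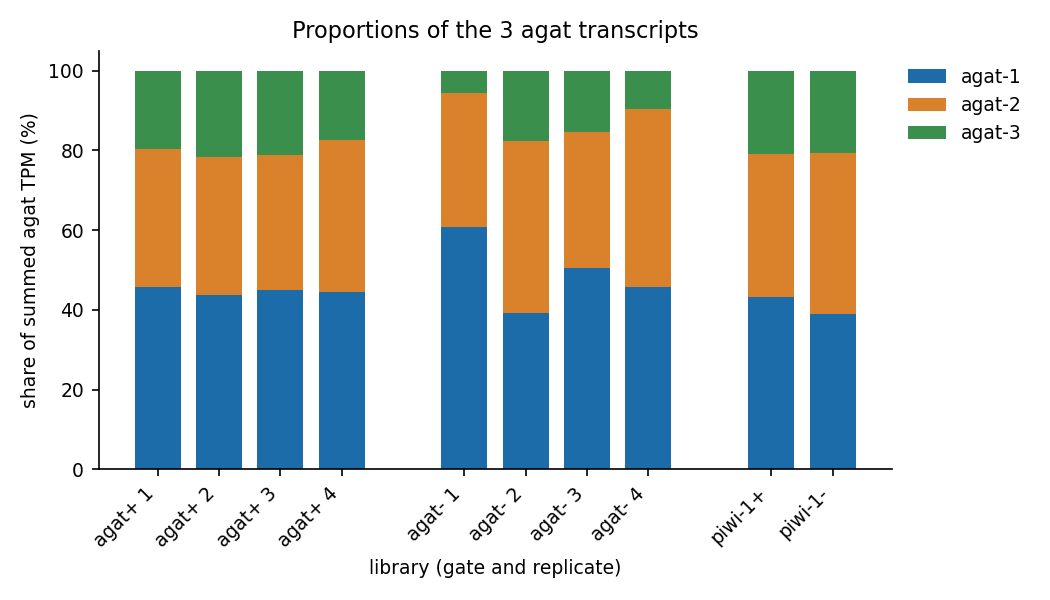
Share of each agat gene in the summed agat TPM (y axis, %) of each library; each bar adds to the whole of the 3 genes. agat-3 holds 17.5% to 21.6% in the agat-positive libraries, 21.0% in the piwi-1-positive and 20.6% in the piwi-1-negative library, and 5.53% to 17.7% in the agat-negative libraries.

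The 3 agat profiles resembled each other closely across the 10 libraries, as did those of other genes. Likeness was measured as Pearson's r of log2(TMM-scaled CPM + 1), as a description only, since the points fall into gates and share each library's depth and makeup. agat-1 and agat-2 had r = 0.994, agat-2 and agat-3 0.990, and agat-1 and agat-3 0.981. In the list of genes most like agat-1, agat-2 held place 6 and agat-3 place 36 of 8375. In the list of agat-2, agat-1 held place 3 and agat-3 place 9, and in that of agat-3, agat-2 held place 7 and agat-1 place 21. Other genes thus stood nearer to each agat gene than its relatives did.

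Against the mean profile of the 3, the most similar other genes were SMED30018924 (r = 0.998) and SMED30000058 (r = 0.997). SMED30018924 measured 1466, 299, 243 and 1263 CPM across agat-positive replicates 1 to 4. Across agat-negative replicates 1 to 4 it measured 10.7, 33.0, 82.9 and 21.4 CPM. It had 125 CPM in the piwi-1-positive and 77.6 CPM in the piwi-1-negative library. SMED30000058 had 45.4 to 299 CPM in agat-positive and 2.13 to 17.6 CPM in agat-negative libraries. Levels of different genes are compared in TPM, where SMED30018924 lay above agat-1, at 683 to 3792 TPM in agat-positive and 30.0 to 244 TPM in agat-negative libraries. The ranges of SMED30000058, 206 to 1270 TPM and 11.3 to 79.6 TPM, lay close to the 221 to 1295 TPM and 14.5 to 92.4 TPM of agat-1.

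In all, 74 of 8373 other genes had r of 0.95 or more with the mean agat profile. The genes most opposed to it were SMED30016632 (r = -0.92) and SMED30017424 (r = -0.91), and their changes were small beside those of the agat genes. SMED30016632 had 8.25 to 16.6 CPM in agat-positive and 18.6 to 25.0 CPM in agat-negative libraries. SMED30017424 had 8.18 to 14.5 and 14.9 to 23.2 CPM. piwi-1 had r = -0.45 over the same libraries.

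**Figure D5:**
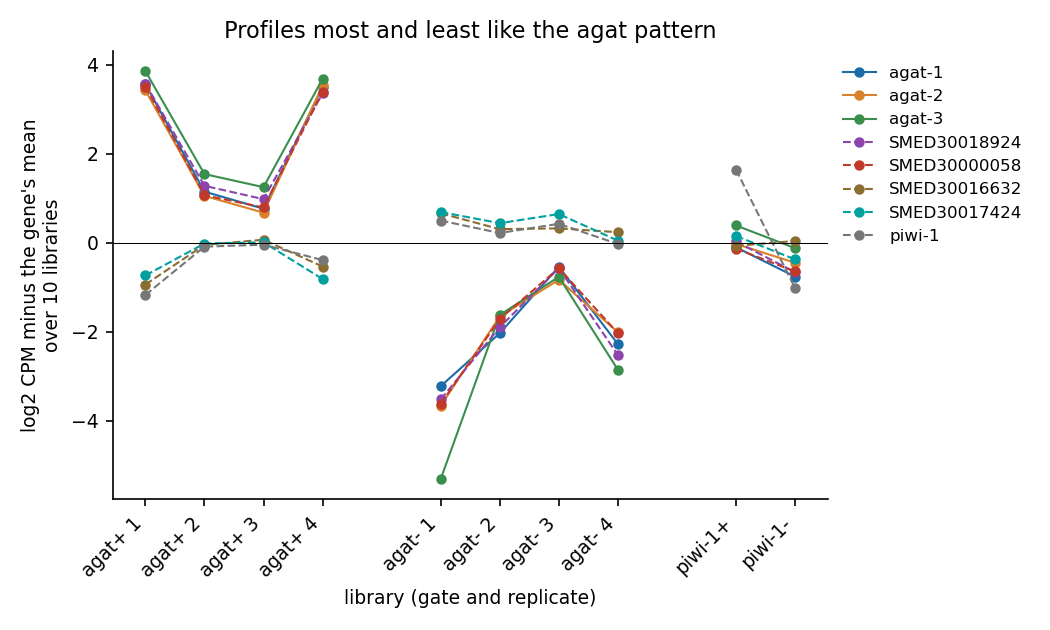
Log2 CPM of each gene in each library, minus the mean of that gene over the 10 libraries, for the 3 agat genes (solid), the 2 genes most like their mean profile, the 2 most opposed to it and piwi-1 (dashed). The agat genes and the 2 most similar genes lie close together in most libraries. Among them agat-3 drops clearly lower in agat-negative replicate 1, and it is also the lowest in agat-negative replicate 4.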

How the data were processed

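Polyadenylated RNA of sorted cells was amplified with SMART-seq v4 and made into Nextera XT libraries, per the labels' protocols; these carry no molecular identifiers, so PCR copies count as reads. The authors deposited raw counts per gene and TPM values, 1 column per library. RSEM 1.3.1 and STAR 2.7.10b are the tools listed, per the submitters' processing notes. Neither build nor annotation nor strandedness is given in the sources used here. Rows naming no gene held 22.8% to 36.98% of reads and were left out.

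The agat gates, 4 libraries each, were tested in edgeR 4.0.16 under R 4.3.3 (two-sided quasi-likelihood test, TMM, filterByExpr, robust, no replicate block, Benjamini-Hochberg over 22954 genes, threshold 0.05). All 3 agat genes passed the filter. The SE comes from the estimate and its F statistic. DESeq2 1.42.0 and limma 3.58.1 (log2(TPM + 1) and log2(TPM + 0.1), genes above 0 in 4 libraries or more) were alternatives. TPM ratios between the agat genes were compared over all 70 assignments of libraries with scipy 1.17.1. CPM is relative to all assigned counts. Intervals are 95% and cover counting error only. Genes of like profile were taken among those with a mean of 10 CPM or more: the 2 nearest and the 2 most opposed were named. Scripts were tested on simulated counts with the same variability for all genes. That test does not show how well genes as variable as the agat genes are called. A first limit on the changes recovered by edgeR was missed. It was replaced by checks of sign, false calls, bias and recovery of large changes. The median log2 fold change of all tested genes was -0.06.

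The members, lists and tests were chosen with earlier results of these data known. Lists of epidermal, neoblast and creatine genes by name could not be used, since IDs have no names here. Same-numbered positive and negative libraries deviated together at correlations of -0.12 to 0.05, and other-numbered ones at -0.11 to 0.17. These values cannot decide whether a number marks a shared sort. The labels state no shared sort, so the numbers were not taken to pair samples.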

Additional observations from a re-analysis of the deposited data

How the results depend on the processing

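The agat fold changes kept their direction under all 16 alternatives and missed the threshold in 15. The DESeq2 Wald test passed all 3, with log2 fold changes of 4.62, 4.59 and 5.12 (DESeq2 adjusted p at most 4.4e-05). In the other settings the adjusted p by edgeR or limma ran from 0.0729 to 0.662 for agat-1 and agat-2 and from 0.123 to 0.668 for agat-3. With 1 library left out the log2 fold changes ran from 4.17 to 5.28, 4.15 to 5.01 and 4.64 to 5.78. limma on log2(TPM + 1) gave 4.00, 3.96 and 4.74. The replicate block gave 4.40, 4.25 and 5.08 (edgeR adjusted p 0.662, 0.662 and 0.668) and the numbers are not known to pair libraries. In ratios, a sign-flip test of same-numbered libraries cannot go below an exact p of 0.125.

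Genes called higher numbered 2, and 1 with library size only, 0 with the replicate block, without both libraries numbered 4 and in limma, 403 in DESeq2 (78 lower), and 0 to 98 with 1 library left out, the 98 without agat-positive replicate 3. Genes higher in every positive library numbered 364 in library-size CPM, 1395 without both libraries numbered 4, and 692 to 1298 with 1 library left out. This count, its alternatives and the counts in limma were added after seeing the data.

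The difference in the log2 ratio of agat-2 to agat-1 ran from -0.19 to 0.14 with 1 library left out and was 0.042 without both libraries numbered 4. That of agat-3 to agat-1 ran from 0.54 to 1.31 and of agat-3 to agat-2 from 0.73 to 1.22. With 1 added to each TPM, the agat-3 to agat-2 difference was 0.77 (exact permutation p = 0.0571, adjusted 0.129). In counts it was 1.01 (exact permutation p = 0.0286, adjusted 0.0857). No alternative brought an adjusted p for a ratio under 0.05. Leaving out libraries cannot, as 3 against 4 allow no p below 0.0571. With all 8 libraries a ratio cannot either, unless another ratio also has a small p. In the piwi-1 pair the log2 ratios (agat-1, then agat-2, then agat-3) were 0.40, 0.16 and 0.25 in TMM-scaled CPM and 0.89, 0.56 and 0.76 in TPM. Of the 10 genes most like the agat pattern, 3 were shared with the Spearman list and 5 with that over the 8 agat libraries. Dixon's outlier rule sets the gap beside an extreme library against the range of its group. It flagged no library in 24 groups of 4, piwi-1 levels included. The rule was applied on linear scales and cannot flag a high pair against a low pair, as in the agat-positive gate. The cause of the shifts between settings was not tested.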
